A study of Sus scrofa with 36 samples.

Results

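CD93, NOSTRIN, FLT1 and CLIC2 are 4 genes known from vascular endothelium, the cell layer that lines blood vessels. They were followed in the hippocampus of 36 male Landrace × Large White piglets on Affymetrix porcine arrays, as 4 of the 6765 genes that the array annotation names with a single symbol. The members were taken as every probe set annotated with exactly 1 of these symbols, which gave 7 of 23999 probe sets; 5 of the 7 passed the filter on dim probe sets. The piglets were bought at 3 days old and sampled at postnatal day 38. The control group of 12 received milk replacer, which holds a basal amount of lactoferrin that the labels do not quantify. The medium-dose group of 12 received the replacer with lactoferrin at 0.6 g/L, and the high-dose group of 12 at 1.2 g/L. The sample descriptions also carry 1 of 5 set codes (S1, S2, S3, S4 or S5), which the labels leave unexplained; no medium-dose sample is in S1.

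Endothelial cells of the brain form the blood-brain barrier and answer growth factors of the VEGF family. FLT1 is a VEGF receptor that binds its ligand tightly and signals weakly, and its soluble form acts as a decoy. CD93 is a transmembrane lectin of the group that includes thrombomodulin (THBD); it is bound by the matrix protein MMRN2 and is also made by myeloid cells. NOSTRIN is an adaptor that binds endothelial nitric oxide synthase (NOS3) and draws it from the cell membrane into vesicles. CLIC2 belongs to the chloride intracellular channel family and can inhibit ryanodine receptors. In bulk hippocampus, fewer cells of a type and less RNA per cell cannot be told apart.

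Endothelial markers were read beside the members. Their levels alone do not show whether the members follow endothelium. PECAM1, a junction protein, averaged 7.55 ± 0.25 in control hippocampi (log2 RMA value, SD, n = 12). CDH5, the endothelial cadherin, averaged 7.32 ± 0.31. The tight junction gene CLDN5, from the separate blood-brain barrier list, averaged 9.44 ± 0.28. Of 42 listed endothelial genes, 27 were on the array and 23 passed the filter. The 4 members did not move as 1 group with these markers, as the correlations below show. They are therefore described gene by gene.

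The members were chosen from their differences between feeding groups, so those differences are given as a description, with no test. In the limma fit across 18006 probe sets, with set code as a block, 0 probe sets passed an adjusted p of 0.05 in any of the 3 feeding contrasts (0% called in each). At an unadjusted p under 0.05 the medium-dose group had 3.78% of probe sets higher and 3.15% lower than control. The high-dose group had 2.77% higher and 2.17% lower than control. Against the medium dose, the high dose had 2.48% higher and 3.49% lower. The contrasts share samples, so they are not independent of each other.

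FLT1 was dim on all 3 of its probe sets. On the brightest, the only one above the filter, the lowest, median and highest values were 4.5, 4.8 and 5.2 in control, 4.8, 4.95 and 5.5 at the medium dose, and 4.9, 5.0 and 5.5 at the high dose (log2 RMA values). The 3 groups overlapped, and every one of the 12 high-dose samples lay above the control median. The high-dose group was higher than control by 0.26 (SE 0.08; 95% interval 0.09 to 0.43), a 1.20-fold ratio. The medium dose differed from control by 0.13 (interval -0.04 to 0.30). The brightest probe set stood only just above the filter threshold of 4.92, with a mean of 4.97 over 36 samples. The next brightest, below the filter, differed by 0.16 between high dose and control (interval -0.04 to 0.35). The dimmest, also below it, differed by -0.01 (interval -0.17 to 0.15). The 2 brighter FLT1 probe sets followed each other over samples, with r = 0.69 after group and set means were removed, while the dimmest followed the brightest with r = 0.13.

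CD93 was bright on one probe set and dim on the other. On the bright one the lowest, median and highest values were 8.8, 9.45 and 9.9 in control, 9.1, 9.8 and 10 at the medium dose, and 8.8, 9.55 and 9.9 at the high dose. Medium-dose samples sat high, with 11 of 12 above the control median, and the groups overlapped. The medium dose was higher than control by 0.40 (SE 0.09; interval 0.21 to 0.59), a 1.32-fold ratio. The high dose differed from control by 0.11 (interval -0.08 to 0.30) and from the medium dose by -0.29 (interval -0.48 to -0.10).

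The dim CD93 probe set gave another order of groups. Its lowest, median and highest values were 4.6, 4.85 and 5.1 in control, 4.8, 4.9 and 5.3 at the medium dose, and 4.8, 5.0 and 5.4 at the high dose. All 3 groups overlapped, and the highest median was that of the high dose. The high dose differed from control by 0.21 (interval 0.06 to 0.37) and the medium dose by 0.12 (interval -0.03 to 0.28). The 2 CD93 probe sets did not follow each other over the 36 samples (r = -0.09 after group and set means were removed). Statements about CD93 below use the brighter one.

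NOSTRIN was lowest at the medium dose. Its lowest, median and highest values were 6.3, 6.65 and 7.5 in control, 5.9, 6.25 and 6.9 at the medium dose, and 6.2, 6.5 and 7.3 at the high dose. Of the 12 medium-dose samples, 2 lay above the control median, and the ranges overlapped. The medium dose differed from control by -0.47 (SE 0.11; interval -0.70 to -0.24). The high dose differed from control by -0.10 (interval -0.33 to 0.13) and from the medium dose by 0.37 (interval 0.14 to 0.60).

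CLIC2 was also lowest at the medium dose. Its lowest, median and highest values were 6.0, 6.55 and 7.4 in control, 5.9, 6.15 and 6.7 at the medium dose, and 6.2, 6.4 and 7.4 at the high dose. The medium-dose samples stopped at 6.7. Above that lay control samples at 6.8, 6.9, 7.0, 7.0 and 7.4 and high-dose samples at 7.3, 7.4 and 7.4. The groups overlapped at 6.7 and below. The medium dose differed from control by -0.40 (SE 0.12; interval -0.65 to -0.15). The high dose differed from the medium dose by 0.45 (interval 0.20 to 0.70) and from control by 0.05 (interval -0.19 to 0.30).

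**Figure D1:**
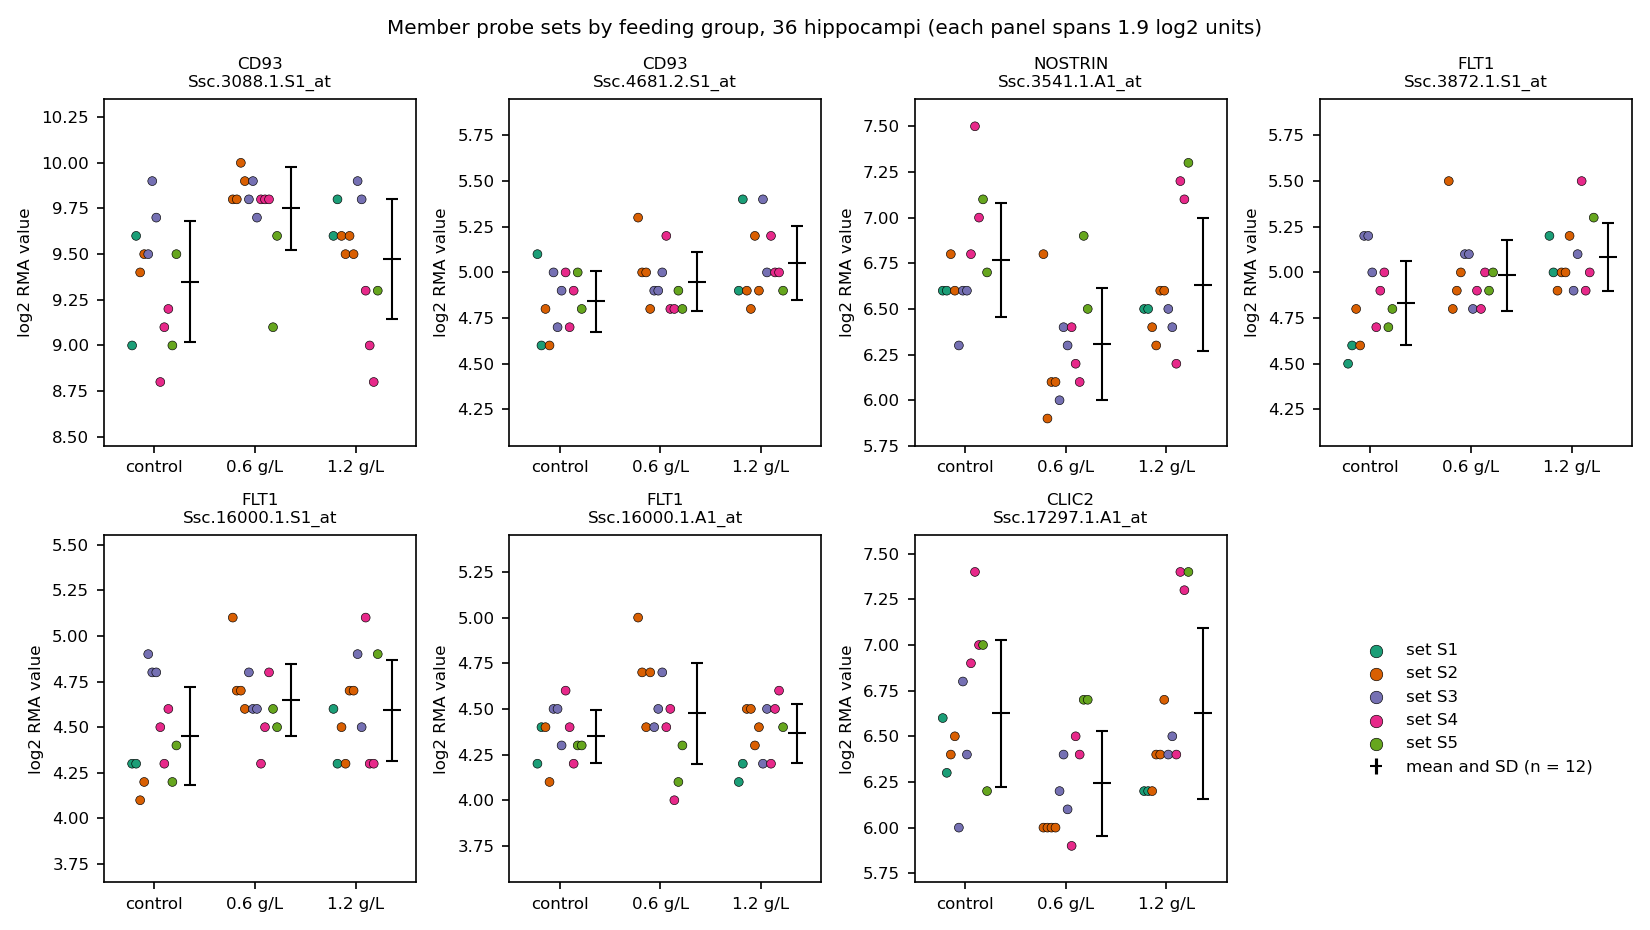
Each point is 1 hippocampus, its height the log2 RMA value of a member probe set, its colour the set code, with the mean and SD of each feeding group (n = 12) beside it. The groups overlap on every probe set; the highest CLIC2 values, up to 7.4, come from sets S4 and S5.

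**Figure D2:**
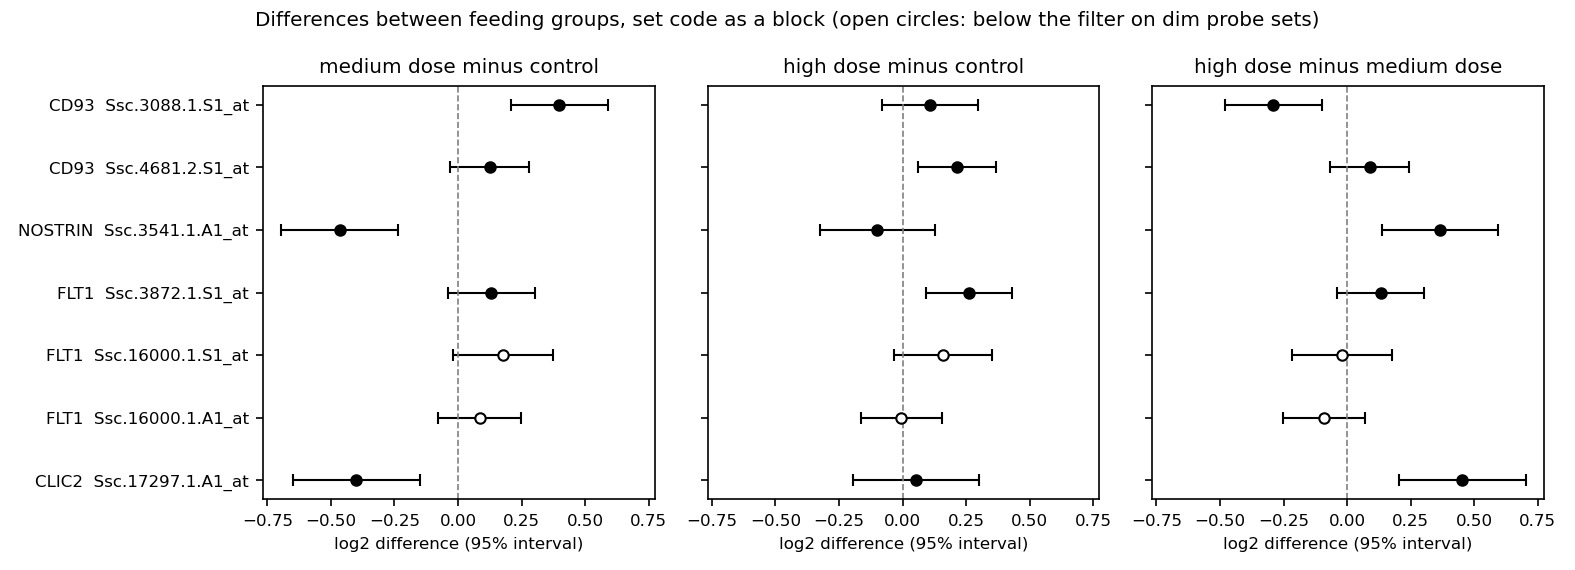
Differences between feeding groups on the log2 scale with 95% intervals, from the fit with set code as a block; open circles are the 2 FLT1 probe sets below the filter. The bright CD93 probe set at 0.40 lies opposite to NOSTRIN at -0.47 and CLIC2 at -0.40 in the medium dose minus control contrast.

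The feeding differences were not even over the set codes. For CD93 the medium dose minus control difference of means was 0.77 in S4, with 3 samples in each group, 0.43 in S2, 0.10 in S3 and 0.10 in S5. For NOSTRIN it was -0.87 in S4, -0.48 in S2, -0.27 in S3 and -0.20 in S5. For CLIC2 it was -0.83 in S4, -0.45 in S2, -0.17 in S3 and 0.10 in S5. CD93, NOSTRIN and CLIC2 thus showed their biggest medium dose minus control difference in S4. On the brightest FLT1 probe set, high dose minus control was -0.13 in S3. It was 0.55 in S1, 0.325 in S2, 0.27 in S4 and 0.55 in S5, the last from 1 high-dose sample. For CD93 the high dose minus medium dose difference was -0.77 in S4, -0.325 in S2, 0.05 in S3 and -0.05 in S5. An interaction of feeding group and set code, fitted over S2 to S5, was called for 3 of the 18006 probe sets, none of them a member. With 1 to 4 samples per feeding group in each of these sets, that fit cannot show that the differences were even.

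The set codes were not used to choose the members, so they were tested. CD93 and CLIC2 differed between set codes (limma F test, adjusted p = 0.0271 and 0.0293), against 2.62% of all probe sets called and 17.4% at an unadjusted p under 0.05. NOSTRIN (adjusted p = 0.107), FLT1 (adjusted p = 0.715) and the dim CD93 probe set (adjusted p = 0.921) did not pass. From S1 to S5, the mean CD93 values were 9.50, 9.66, 9.78, 9.29 and 9.30. Mean CLIC2 was 6.33, 6.26, 6.35, 6.80 and 6.80 in the same order. Mean CD93 was thus low, and mean CLIC2 high, in S4 and S5. This did not hold for every feeding group. The S4 medium-dose means were 9.8 for CD93 and 6.27 for CLIC2. The S4 control means were 9.03 and 7.10, and the S4 high-dose means 9.03 and 7.03. The CLIC2 call was lost without the 3 arrays of lowest correlation with the others (adjusted p = 0.0653) and with the endothelial list mean as a covariate (adjusted p = 0.0617). NOSTRIN passed with array weights (adjusted p = 0.0261).

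**Figure D3:**
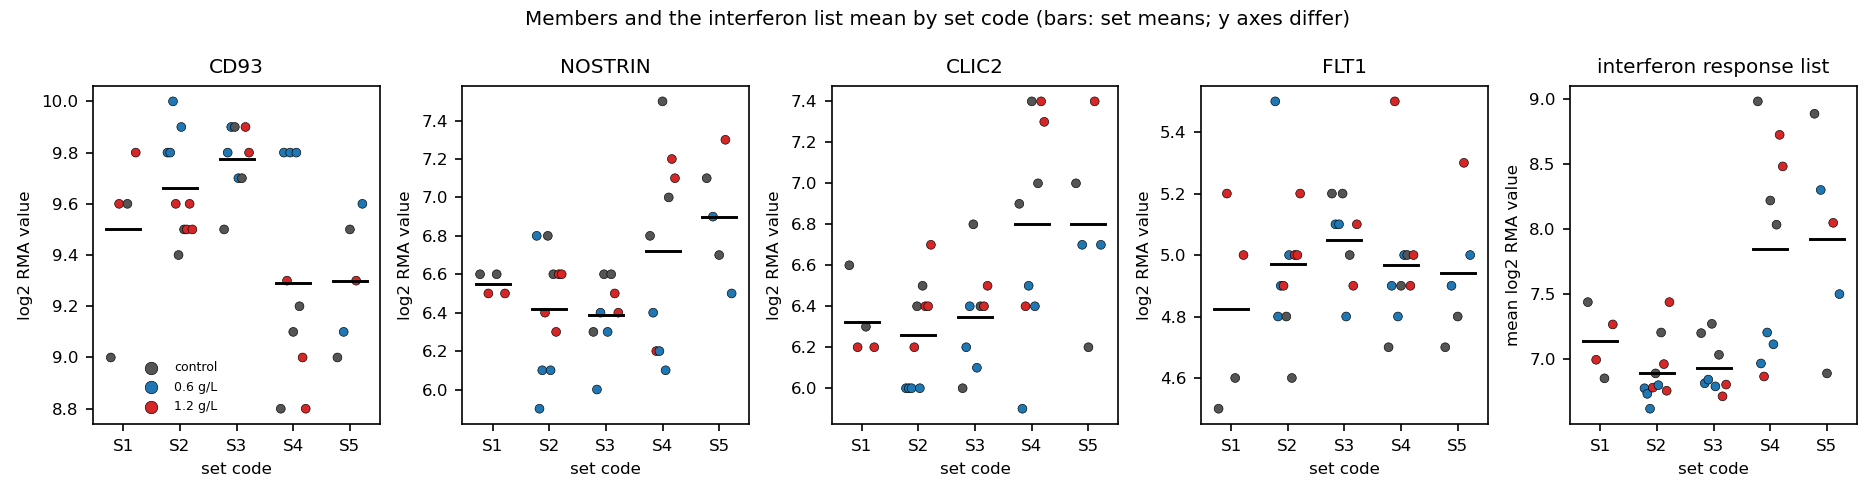
Log2 RMA values of the members, and the mean of the interferon response list, by set code; points are hippocampi coloured by feeding group and bars are set means. CD93 means are 9.29 and 9.30 in S4 and S5, where the CLIC2 mean is 6.80 in both and the upper interferon values occur.

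Correlations between members were taken over 36 samples after removing group and set means, for 6 pairs. NOSTRIN and CLIC2 rose and fell together (r = 0.67, permutation p = 8e-05, adjusted 0.00048; rho = 0.63, permutation p = 0.0001). CD93 and CLIC2 ran opposite (r = -0.46, permutation p = 0.0102, adjusted 0.0307). The rho for CD93 and CLIC2 was -0.44 (permutation p = 0.00705, adjusted 0.0212) when ranks were taken after group and set means were removed, and -0.28 (adjusted permutation p = 0.266) when ranks were taken first. The 2 samples farthest from the CD93 median, after group and set means were removed, were then left out. The r was -0.37 (adjusted permutation p = 0.104), so the call was lost while the sign stayed. CD93 and NOSTRIN did not pass (r = -0.38, permutation p = 0.0386, adjusted 0.0772). The 3 pairs with FLT1 did not pass, with r of 0.20 with CD93, 0.08 with NOSTRIN and -0.11 with CLIC2.

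Within set codes the signs were not all alike. With feeding group means removed, CD93 and CLIC2 gave r = -0.27 in S2 (n = 10), -0.43 in S4 (n = 9) and 0.94 in S3 (n = 8), given as values with no test. On raw values, which keep the feeding differences the members were chosen on, the same pair gave -0.86, -0.81 and 0.74. NOSTRIN and CLIC2 were positive in all 3 of these sets, with r of 0.16 in S2, 0.60 in S3 and 0.76 in S4 with group means removed. In the 26 samples with the Dap spike-in signal and the 10 without, NOSTRIN and CLIC2 gave r of 0.83 and 0.77 on raw values, with group means left in.

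The genes nearest to each member were named by the highest r after group and set means were removed, over 36 samples. For CD93 they were ABCG2, an efflux transporter of the blood-brain barrier (r = 0.75), SLC25A11 (0.63), TGFB1 (0.63), COL4A2, a basement membrane collagen (0.62), and LOC100524254 (0.60). For NOSTRIN they were SLA-DQA1, a class II histocompatibility gene (0.73), B2M, the light chain of class I molecules (0.71), SP110 (0.70), SLA-3 (0.70) and ANXA1 (0.70). For CLIC2 they were LOC733579 (0.85), B2M (0.84), GNG11 (0.82), SLA-3 (0.80) and UBD (0.79). For FLT1 they were CPNE1 (0.70), SF3B1 (0.69), HSPB1 (0.64), SRRM2 (0.64) and DBF4 (0.62). B2M and SLA-3 stand among the nearest genes of both NOSTRIN and CLIC2. At the other end for CD93 were MX1 (-0.81), DDX58 (-0.76) and ISG15 (-0.74), which are interferon response genes.

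Because of these neighbours, lists of 21 interferon response genes and 22 antigen presentation genes were added after the values were seen, and they are described with no test. The interferon list mean fell into separate ranges. It lay between 6.62 and 7.5 in 28 hippocampi and between 8.03 and 8.98 in 8. The 8 were 4 control, 1 medium-dose and 3 high-dose samples, 5 of them from S4 and 3 from S5. No pooled correlation with this list is therefore given. The S4 control samples were all among the 8 (list means 8.03, 8.22 and 8.98). The S4 medium-dose samples were all among the 28 (6.97, 7.11 and 7.20). In S4 the medium dose minus control difference of the members is thus also a difference between the ranges.

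The members' levels differed between the 2 ranges. CD93 had a lowest, median and highest value of 9.0, 9.7 and 10 in the 28 and 8.8, 9.05 and 9.3 in the 8. NOSTRIN had 5.9, 6.45 and 6.8 in the 28 and 6.8, 7.1 and 7.5 in the 8. CLIC2 had 5.9, 6.4 and 6.8 in the 28 and 6.7, 7.15 and 7.4 in the 8. CD93 was mostly lower in the 8 samples, NOSTRIN and CLIC2 mostly higher, with overlap only at the edges. FLT1 had 4.5, 5.0 and 5.5 in the 28 and 4.7, 4.9 and 5.3 in the 8, which overlap throughout.

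The 2 called pairs were read again within each range. Among the 28 samples, with group and set means removed, NOSTRIN and CLIC2 gave r = 0.20 and CD93 and CLIC2 r = -0.14. Among the 8, on raw values, the same pairs gave r = 0.84 and r = 0.14. On raw values the other pairs also differed between the ranges. CD93 and FLT1, for example, gave a raw r of 0.21 among the 28 and 0.65 among the 8. With group and set means removed, that pair gave r = 0.02 among the 28. CLIC2 still followed the interferon mean among the 28 (r = 0.62 with group and set means removed), while CD93 gave r = -0.23 and NOSTRIN r = 0.11. Among the 8, on raw values, the r with the interferon mean was -0.22 for CLIC2, -0.40 for NOSTRIN, -0.78 for CD93 and -0.80 for FLT1. With the antigen presentation mean, CLIC2 gave r = 0.64 and NOSTRIN r = 0.31 among the 28, with group and set means removed. Among the 8, on raw values, CLIC2 gave r = 0.66 and NOSTRIN r = 0.85 with that mean. With the interferon list mean as a covariate, the set code differences of CD93 (limma adjusted p = 0.695) and CLIC2 (adjusted p = 0.775) were no longer called. The list was added because of the members' own neighbours in these data, and all 8 upper samples come from S4 and S5. The loss of these calls was therefore likely in advance and decides nothing. With the same covariate, the medium dose minus control difference was 0.22 for CD93, -0.30 for NOSTRIN and -0.17 for CLIC2. The part of the interferon genes in these results was not tested.

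**Figure D4:**
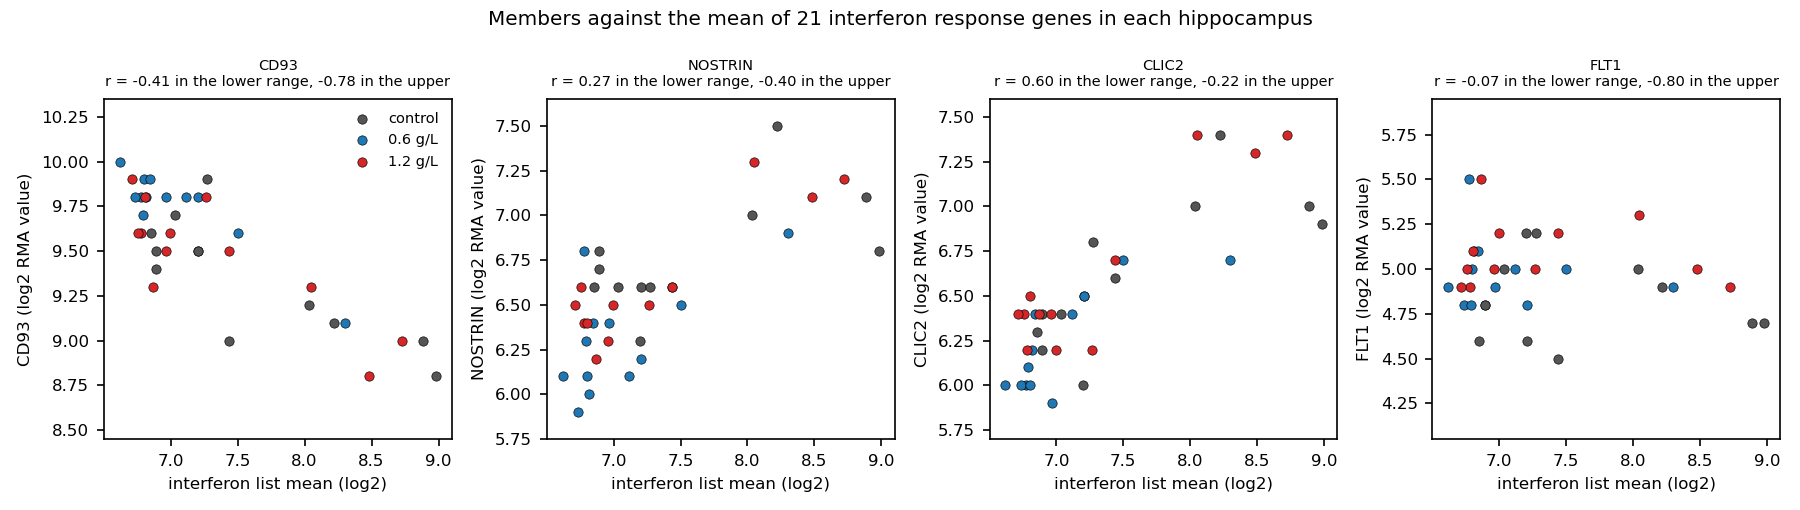
Log2 RMA value of each member against the mean of the 21 interferon response genes, 1 point per hippocampus, coloured by feeding group, with r on raw values in each range of the list mean. The 28 samples at up to 7.5 and the 8 samples from 8.03 stand apart; CD93 is lower and NOSTRIN and CLIC2 higher in the 8, and FLT1 overlaps.

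Against the means of 10 cell type lists, 40 relations were computed with group and set means removed. CD93 followed the blood-brain barrier list (r = 0.59, permutation p = 0.00078, adjusted 0.0174), a list that holds its nearest gene ABCG2. Without the 2 samples farthest on CD93 after that removal, the relation gave r = 0.45 (adjusted permutation p = 0.155). With the dim CD93 probe set it gave r = -0.07. CLIC2 followed the myeloid list (r = 0.58, permutation p = 0.00087, adjusted 0.0174). Without the 2 samples farthest on CLIC2 it gave r = 0.48 (adjusted permutation p = 0.155). Both calls were thus lost without 2 samples, while r stayed positive. Among the 28 samples of the lower interferon range they gave r of 0.64 and 0.60, with group and set means removed. Among the 8 of the upper range, on raw values, they gave r of 0.63 and 0.37. Single genes of the myeloid list gave a median r of 0.29 with CLIC2, from -0.17 for CD14 to 0.73 for CTSS. CD74, which is also in the antigen presentation list, gave 0.71. NOSTRIN with the myeloid list did not pass (r = 0.50, adjusted permutation p = 0.0752).

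With the general endothelial list, no member passed. FLT1 gave r = 0.46 (adjusted permutation p = 0.0789), NOSTRIN 0.43 (adjusted 0.0947), CLIC2 0.32 (adjusted 0.274) and CD93 0.12 (adjusted 0.853). Among the 28 samples of the lower interferon range, FLT1 and the endothelial list gave r = 0.60 with group and set means removed. Among the 8 of the upper range they gave r = 0.18 on raw values. FLT1 with the mural list, the muscle-like cells around vessels, gave r = 0.43 (adjusted permutation p = 0.0947).

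**Figure D5:**
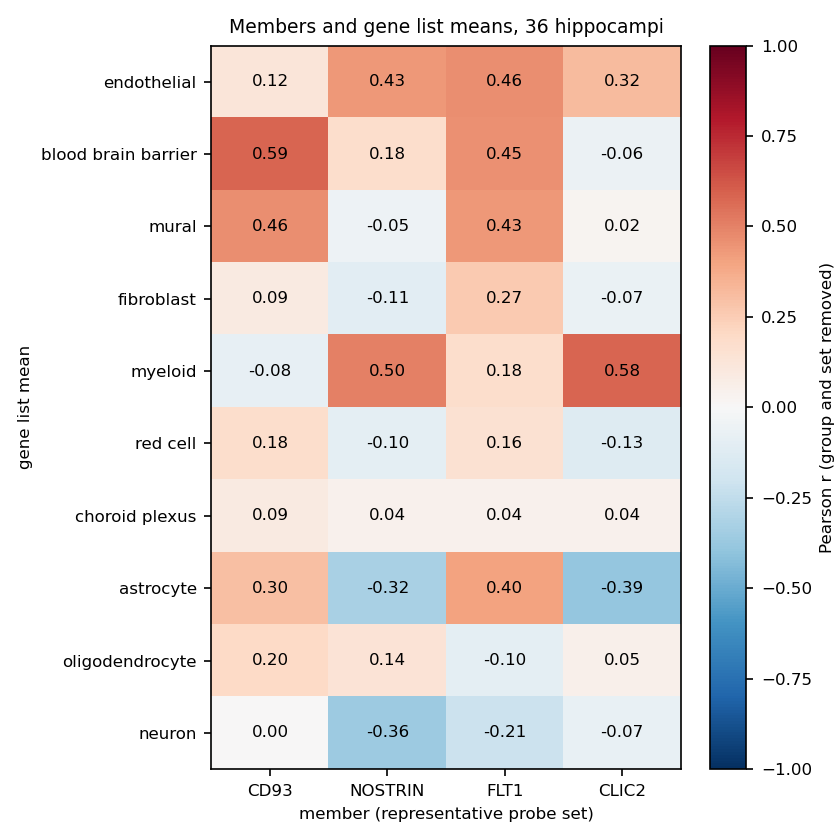
Pearson r between each member and the mean of each cell type list over 36 hippocampi, with group and set means removed; red is positive and blue negative. The highest values are CD93 with the blood-brain barrier list (0.59) and CLIC2 with the myeloid list (0.58).

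Other genes of the same pathways were read from the same fit, and 0 passed an adjusted p of 0.05 in any feeding contrast. In the endothelial list 12 of 23 genes lay above 0 in the medium dose minus control contrast, with a median of 0.01, beside 50.3% of all probe sets. In the high dose minus control contrast 14 of 23 did, with a median of 0.04, beside 49.7% of all probe sets. VEGFA, the main ligand of FLT1, differed by -0.07 (SE 0.06) at the medium dose and -0.13 (SE 0.05) at the high dose. ANGPT1, a ligand of the endothelial receptor TEK, differed by 0.22 (SE 0.11) at the high dose. ANGPT2, the other TEK ligand, was the VEGF and angiopoietin list's 1 gene of 13 that differed between set codes (limma adjusted p = 0.0155).

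NOS3, the partner of NOSTRIN, averaged 6.31 ± 0.20 in control, 6.48 ± 0.11 at the medium dose and 6.35 ± 0.12 at the high dose (SD, n = 12). It differed by 0.17 (SE 0.06) between medium dose and control, opposite in sign to NOSTRIN. CAV1, the caveolar protein that holds NOS3, differed by 0.00 (SE 0.10). THBD, the relative of CD93, differed by 0.06 (SE 0.10), and RHOA, 1 of 5 genes of its list, differed between set codes (adjusted p = 0.0371). CLIC1, the relative of CLIC2, differed by -0.21 (SE 0.09). In the list of 6 genes that holds CLIC1, 4 lay above 0 in the medium dose minus control contrast, with a median of 0.06. Of all probe sets, 50.3% did.

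Myeloid markers lay lower than control at both doses, and CLIC2 and NOSTRIN lay lowest at the medium dose. In limma, 0 of 12 myeloid genes passed an adjusted p of 0.05 in any feeding contrast. In the medium dose minus control contrast 0 of 12 myeloid genes lay above 0, with a median of -0.17 and 4 lower at an unadjusted p under 0.05, beside 50.3% above 0 and 3.15% lower among all probe sets. The high dose minus control median was -0.14, with 1 of 12 above 0 and again 4 lower at an unadjusted p under 0.05. Of all probe sets, 49.7% lay above 0 and 2.17% were lower there. In that contrast CLIC2 differed by 0.05 and NOSTRIN by -0.10. The high dose minus medium dose median was 0.02, where CLIC2 differed by 0.45 and NOSTRIN by 0.37. Other lists were low in the medium dose minus control contrast too. There, 0 of 21 interferon genes lay above 0 (median -0.46, 15 lower at an unadjusted p under 0.05), 0 of 22 antigen presentation genes (median -0.20, 7 lower) and 1 of 11 oligodendrocyte genes (median -0.19, 2 lower). The myeloid list mean ranged from 7.08 to 7.98 in control, 6.92 to 7.46 at the medium dose and 7.04 to 7.35 at the high dose. CTSS, a myeloid protease, was the 1 of 12 that differed between set codes (adjusted p = 0.0407). The part of these cells in the NOSTRIN and CLIC2 values was not tested.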

How the data were processed

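Hippocampal RNA of 36 piglets was measured on Affymetrix porcine arrays. The authors deposited log2 values, made with Affymetrix Expression Console 1.1 and RMA per the submitters' processing notes, rounded to 1 decimal. Array medians lay between 6.6 and 6.7, and each array correlated with the rest at 0.961 or more on average. Arrays give no read depth; their number limits the precision. Genes were named from the platform annotation; 10069 probe sets had 1 symbol, 198 several and 13732 none, and 9961 matched RefSeq by gene ID.

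The 124 control probe sets and probe sets with a mean under the 25th percentile (log2 4.92) were left out, leaving 18006. limma 3.58.1 (R 4.3.3) was fitted with feeding group and set code, with Benjamini-Hochberg adjustment. The 2 FLT1 probe sets below the filter were read from a fit without it. Correlations used the brightest probe set of each gene, residuals from group and set, and 100000 permutations (Python 3.11.15), two-sided; with fewer than 10 samples permutations were exact. The scripts were tested on simulated data. Rank correlations were taken on the residuals; a form that ranks first and then removes group and set was tried after the first form had been seen, and both are given where they differ. Permutation p-values of the residual ranks take no account of the terms removed.

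The labels do not say that piglets within a group came from separate litters, so p-values measure the spread between these samples. The members and the gene lists were chosen with earlier results of these data known. Named genes were all member probe sets, the 5 genes of highest r with each member, a fixed list of vascular genes, and list genes past an adjusted p of 0.05; the genes of lowest r with CD93, and the interferon and antigen presentation lists, were added after their values were seen.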

Additional observations from a re-analysis of the deposited data

Results flagged for a closer look

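In 3 of 35 combinations of a member probe set and a set code, 1 sample was flagged as lying apart from the others of its set. Chance alone gives about 1 such combination in 20. The combinations share samples, so they are not independent. The dim CD93 probe set had a highest value of 5.4 in S3. The brightest FLT1 probe set had a highest value of 5.5 in S4. The next brightest FLT1 probe set had a highest value of 4.6 in S1. All 3 probe sets were dim, and values were deposited to 1 decimal.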

How the results depend on the processing

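On the brightest probe set of each gene, the medium dose minus control difference kept its sign under each alternative run, from 0.22 to 0.51 for CD93, -0.54 to -0.30 for NOSTRIN, 0.05 to 0.22 for FLT1 and -0.51 to -0.17 for CLIC2. The medium dose minus control contrast called 4 probe sets without set S1 and 11 with the 2 groups alone, and the high dose minus medium dose contrast called 1 with array weights; none was a member. Against 472 probe sets called between set codes, array weights gave 841, leaving out the 3 arrays of lowest correlation 272, the oligodendrocyte list mean as a covariate 776 and the interferon list mean, added later, 306. Of the 2 member pairs called, 1 was called without the 2 farthest samples, 1 with the other CD93 probe set and 1 with ranks taken first. Of the 2 list relations called, the counts were 4 with Spearman's rho on residuals, 1 with ranks taken first, 5 on raw values, 0 without the 3 arrays, 0 without the 2 farthest samples and 1 with the other CD93 probe set, where CD93 and the blood-brain barrier list gave r = -0.066. Which form of rank correlation was used thus changed the calls, and the form that ranks first was chosen after seeing the data. Replicate numbers did not pair the samples (mean correlation of same-numbered samples -0.01 over 36 pairs); with the replicate number as a block, 0 probe sets were called in each feeding contrast, 2 member pairs and 1 list relation. The causes were not tested. Dim probe sets limit FLT1 and the dim CD93 probe set, which stand close to the filter.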
